A study of Homo sapiens with 9 samples.

Results

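The EGFR family was examined as 10 genes of the deposited expression table: 3 receptor genes (EGFR, ERBB2, ERBB3), 6 ligand genes (AREG, EREG, HBEGF, TGFA, EPGN, BTC) and the inhibitor gene ERRFI1. They were found by matching the table's 20263 Ensembl identifiers to gene symbols, and each symbol matched a single row. The 9 libraries came from HaCaT, an immortalised line of human epidermal keratinocytes. In the Glabridin group (n = 3) cells had received melanosomes, the pigment organelles of melanocytes, together with glabridin, an isoflavan from licorice. The Melanosome group (n = 3) had received melanosomes without glabridin, and the Blank group (n = 3) is labelled WT and had received neither. The labels state no dose, exposure time, vehicle or melanosome source. They also do not say that replicates were separate cultures, and the spread that the p-values rest on may therefore be technical.

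EGFR, ERBB2 and ERBB3 are receptor tyrosine kinases of the cell surface. A ligand of the EGF type binds the outer part of EGFR, which then pairs with itself or with another family member and starts signalling through RAS and the ERK kinases. ERBB2 has no known ligand of its own, and ERBB3 binds neuregulins and signals through its partners. The ligands are made as membrane-anchored precursors, and proteases such as ADAM17 release them from the cell. In keratinocytes amphiregulin, HB-EGF and TGF-alpha act on the cells that make them, promoting growth, migration and wound closure, and ERRFI1 (also called MIG6) binds the receptor's kinase domain and shuts it off.

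EPGN, EREG, AREG and BTC are neighbours. On GRCh38, with GENCODE release 29, EPGN (chr4:74308473-74315307), EREG (chr4:74365143-74388751), AREG (chr4:74445134-74455009) and BTC (chr4:74744759-74794686) lie within 486.214 kb, with gaps of 49.8, 56.4 and 289.7 kb between them and no other gene of the count table in that span. The promoters of the 5 genes that rose under glabridin (AREG, EREG, HBEGF, TGFA, ERRFI1), and of EPGN and BTC, the neighbours that did not pass the test, are shown because they let the start sites be compared. Each is 300 bases of RefSeq sequence on GRCh38.p14, from 250 bases before the start to 50 after it, read along the gene's strand. Capitals mark every match, on either strand, to 6 motifs. The cAMP response element was searched as TGACGTCA and the binding site of AP-1 factors as TGANTCA. The TATA box was searched as TATAAA, and the composite site of the CHOP and ATF4 factors was searched as TGATGNAA. The antioxidant response element was searched as TGACNNNGC, and the GC box was searched with the letters GGGCGG; matches of different motifs were allowed to overlap.
AREG: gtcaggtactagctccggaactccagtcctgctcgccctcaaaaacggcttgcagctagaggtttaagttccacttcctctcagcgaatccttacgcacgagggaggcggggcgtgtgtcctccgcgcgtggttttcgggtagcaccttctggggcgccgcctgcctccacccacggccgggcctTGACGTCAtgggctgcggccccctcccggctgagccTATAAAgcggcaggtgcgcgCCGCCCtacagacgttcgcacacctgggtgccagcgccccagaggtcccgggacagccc
EREG: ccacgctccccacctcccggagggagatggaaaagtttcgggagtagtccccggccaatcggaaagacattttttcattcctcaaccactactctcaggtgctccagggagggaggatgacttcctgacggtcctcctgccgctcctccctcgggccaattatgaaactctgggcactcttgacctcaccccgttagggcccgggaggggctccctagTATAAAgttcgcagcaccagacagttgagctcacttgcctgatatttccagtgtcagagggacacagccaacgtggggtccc
EPGN: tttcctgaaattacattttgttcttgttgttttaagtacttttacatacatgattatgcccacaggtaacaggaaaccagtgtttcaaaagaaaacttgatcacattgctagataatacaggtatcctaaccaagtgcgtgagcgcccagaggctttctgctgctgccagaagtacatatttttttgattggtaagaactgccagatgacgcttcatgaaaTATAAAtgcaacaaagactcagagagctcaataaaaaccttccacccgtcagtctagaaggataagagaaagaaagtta
BTC: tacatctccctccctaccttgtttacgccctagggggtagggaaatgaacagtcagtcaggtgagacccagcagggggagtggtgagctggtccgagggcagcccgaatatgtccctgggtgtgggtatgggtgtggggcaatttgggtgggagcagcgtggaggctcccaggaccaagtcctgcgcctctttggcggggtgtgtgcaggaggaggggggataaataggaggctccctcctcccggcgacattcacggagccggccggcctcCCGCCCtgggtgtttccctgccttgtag
HBEGF: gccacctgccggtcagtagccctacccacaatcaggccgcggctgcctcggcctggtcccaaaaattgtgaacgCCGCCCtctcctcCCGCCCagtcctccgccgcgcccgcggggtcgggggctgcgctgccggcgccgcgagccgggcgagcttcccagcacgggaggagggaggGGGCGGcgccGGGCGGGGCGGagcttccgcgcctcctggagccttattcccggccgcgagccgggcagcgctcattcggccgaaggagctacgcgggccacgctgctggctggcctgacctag
TGFA: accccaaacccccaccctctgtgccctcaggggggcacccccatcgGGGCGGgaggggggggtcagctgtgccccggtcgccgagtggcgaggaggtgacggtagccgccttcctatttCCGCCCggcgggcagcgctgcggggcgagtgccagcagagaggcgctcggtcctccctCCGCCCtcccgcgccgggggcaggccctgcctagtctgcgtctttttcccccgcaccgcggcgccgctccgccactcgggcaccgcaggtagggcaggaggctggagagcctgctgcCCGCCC
ERRFI1: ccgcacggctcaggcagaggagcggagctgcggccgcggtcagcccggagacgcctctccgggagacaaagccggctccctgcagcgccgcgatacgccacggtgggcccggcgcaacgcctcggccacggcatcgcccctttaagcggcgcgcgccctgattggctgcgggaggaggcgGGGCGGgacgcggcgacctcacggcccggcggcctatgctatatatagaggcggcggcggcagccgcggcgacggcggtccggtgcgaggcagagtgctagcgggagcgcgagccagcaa

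The windows are chr4:74444886-74445185 (plus strand) for AREG, chr4:74364895-74365194 (plus) for EREG, chr4:74308220-74308519 (plus) for EPGN, chr4:74794474-74794773 (minus) for BTC, chr2:70553777-70554076 (minus) for TGFA, chr5:140346554-140346853 (minus) for HBEGF and chr1:8026260-8026559 (minus) for ERRFI1. AREG, EREG and EPGN each carried TATAAA, beginning 29, 32 and 29 bases before the start. These letters were found in 11.5% of all 35116 promoter windows and were absent from the BTC, HBEGF, TGFA and ERRFI1 windows shown. Other spellings of the TATA box were not searched. The BTC window holds ataaata, and the ERRFI1 window holds tatatata. AREG also carried TGACGTCA, beginning 65 bases before the start, which 1.85% of all windows held. HBEGF held 5 matches to GGGCGG, TGFA held 4, and AREG, BTC and ERRFI1 held 1 each, where 44.95% of all windows held at least 1. A second TGFA window, not shown, held no match to any of the motifs. None of the 7 windows shown held TGANTCA (7.71% of all windows), TGATGNAA (3.62%) or TGACNNNGC (13.3%). A match is a description of letters, and EPGN, which held TATAAA too, had at most 21 counts in any library. Windows were found for 9 of the 10 genes. Among those not shown, the EGFR window at the annotated gene start held 3 matches, all to GGGCGG. A second EGFR window (chr7:55109589-55109888), at a start inside the gene, held TGANTCA at -232 and -136 from that start. This second window also held TATAAA at -146 and -36. The ERBB2 window held TGANTCA at -222.

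Levels below are CPM (read counts scaled to library size) with library sizes adjusted by TMM (trimmed mean of M-values), which allow a gene to be compared between libraries. TPM, the authors' transcript levels scaled by gene length, are used where genes are compared with each other. Fold changes come from edgeR's quasi-likelihood test over 13912 genes, and a gene was called at a Benjamini-Hochberg adjusted p under 0.05. Deposited totals were 42582054 to 46591852 counts in Glabridin, 39653425 to 46690787 in Melanosome and 41793696 to 45839573 in Blank libraries. In a principal component analysis the third component (2.34% of the variance) set Glabridin replicates 2 and 3 apart. Summed over 10 keratinocyte markers, the libraries held 9022 to 11750 CPM in Glabridin, 11075 to 11960 CPM in Melanosome and 13734 to 13824 CPM in Blank, all 10 with reads in every group. Summed over 13 melanocyte markers, they held 1735 to 3454 CPM in Glabridin, 3142 to 3275 CPM in Melanosome and 8.30 to 9.42 CPM in Blank, where TYR, TRPM1, OCA2 and KIT were at 0. Of these 13 markers, 13 rose in Melanosome against Blank, where 29.5% of all genes tested rose. In Blank 8 of the 13 had at most 3 counts in every library. These 8 passed the count filter only through the other groups, so their rise was set by the filter. In Glabridin against Melanosome 5 of the 13 fell, 0 rose and 8 were not called, where 20.2% of all genes fell and 23.7% rose. Their median log2 fold change in that comparison was -0.39 (all genes 0.01). The part of the 13 markers in the results that follow was not tested. Of the 10 keratinocyte markers, 7 fell and 1 rose in Melanosome against Blank (33.0% and 29.5% of all genes). Their median log2 fold change there was -0.37 (all genes -0.06). In Glabridin against Melanosome 4 of the 10 rose, 1 fell and 5 were not called, where 23.7% of all genes rose and 20.2% fell. The median of the 10 was 0.08 in that comparison (all genes 0.01). The sums weigh the most abundant markers most and do not give the direction of each. Fewer cells of a type and less RNA per cell cannot be told apart in such bulk libraries. The 6 fibroblast markers summed to 9.57 to 11.9 CPM in Glabridin, 13.02 to 14.6 CPM in Melanosome and 10.95 to 12.1 CPM in Blank. Of 4 macrophage markers PTPRC was at 0 in every library, and the sum was 106 to 120 CPM in Glabridin, 69.8 to 78.0 CPM in Melanosome and 57.1 to 61.1 CPM in Blank. The 3 macrophage markers tested did not move together. In Glabridin against Blank 2 rose (37.6% of all genes) and 1 fell (32.7%). In Glabridin against Melanosome 1 rose (23.7% of all genes) and 2 were not called. Of 5 Schwann cell or neural crest markers 4 were tested. Their sum was 178 to 198 CPM in Glabridin, 217 to 231 CPM in Melanosome and 181 to 195 CPM in Blank. In Melanosome against Blank 3 rose (29.5% of all genes) and 1 was not called. In Glabridin against Blank 3 rose (37.6% of all genes) and 1 fell (32.7%). The rises included S100B and FOXD3, which were at 0 in Blank and so passed the count filter only through the other groups. In Blank 4 of the 5 markers had at most 3 counts in every library. NGFR fell in Glabridin against Melanosome.

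In melanosome-laden cells the 3 receptor genes were lower and the ligand genes AREG and HBEGF higher than in Blank cells. Of the 10 genes, 3 rose and 3 fell in Melanosome against Blank, where 29.5% of all genes tested rose and 33.0% fell. With glabridin added, 5 rose and none fell against Melanosome, where 23.7% of all genes rose and 20.2% fell. The 5 were AREG, EREG, HBEGF, TGFA and ERRFI1. At an unadjusted p under 0.05 edgeR had 1 member lower, and DESeq2 had 1 lower at an adjusted p under 0.05, in each case ERBB2. Glabridin against Blank gave 5 higher and 3 lower members, where 37.6% of all genes were higher and 32.7% lower. In either direction, 5 of 10 members were called in Glabridin against Melanosome (43.9% of all genes), 6 in Melanosome against Blank (62.5%) and 8 in Glabridin against Blank (70.3%), so the number called was near the background in each. Libraries of the compared groups did not overlap for 5 members in Glabridin against Melanosome, all higher (50.2% of all genes, 26.0% higher and 24.2% lower). They did not overlap for 7 in Melanosome against Blank, 3 higher and 4 lower (76.1% of all genes, 35.0% higher and 41.1% lower), and for 8 in Glabridin against Blank, 5 higher and 3 lower (73.2% of all genes, 38.7% higher and 34.4% lower). The balance of directions over all genes moved with the scaling. Of the genes called in Glabridin against Melanosome 54.02% were higher with TMM, 37.96% with upper-quartile factors and 29.05% with library totals, and in Melanosome against Blank 47.2% were higher with TMM and 65.97% with library totals. The median log2 fold change of the 10 genes was 0.61 in Glabridin against Melanosome (all genes 0.01), -0.18 in Melanosome against Blank (all genes -0.06) and 0.13 in Glabridin against Blank (all genes 0.03). The comparisons share libraries and are not independent of each other.

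**Figure D1:**
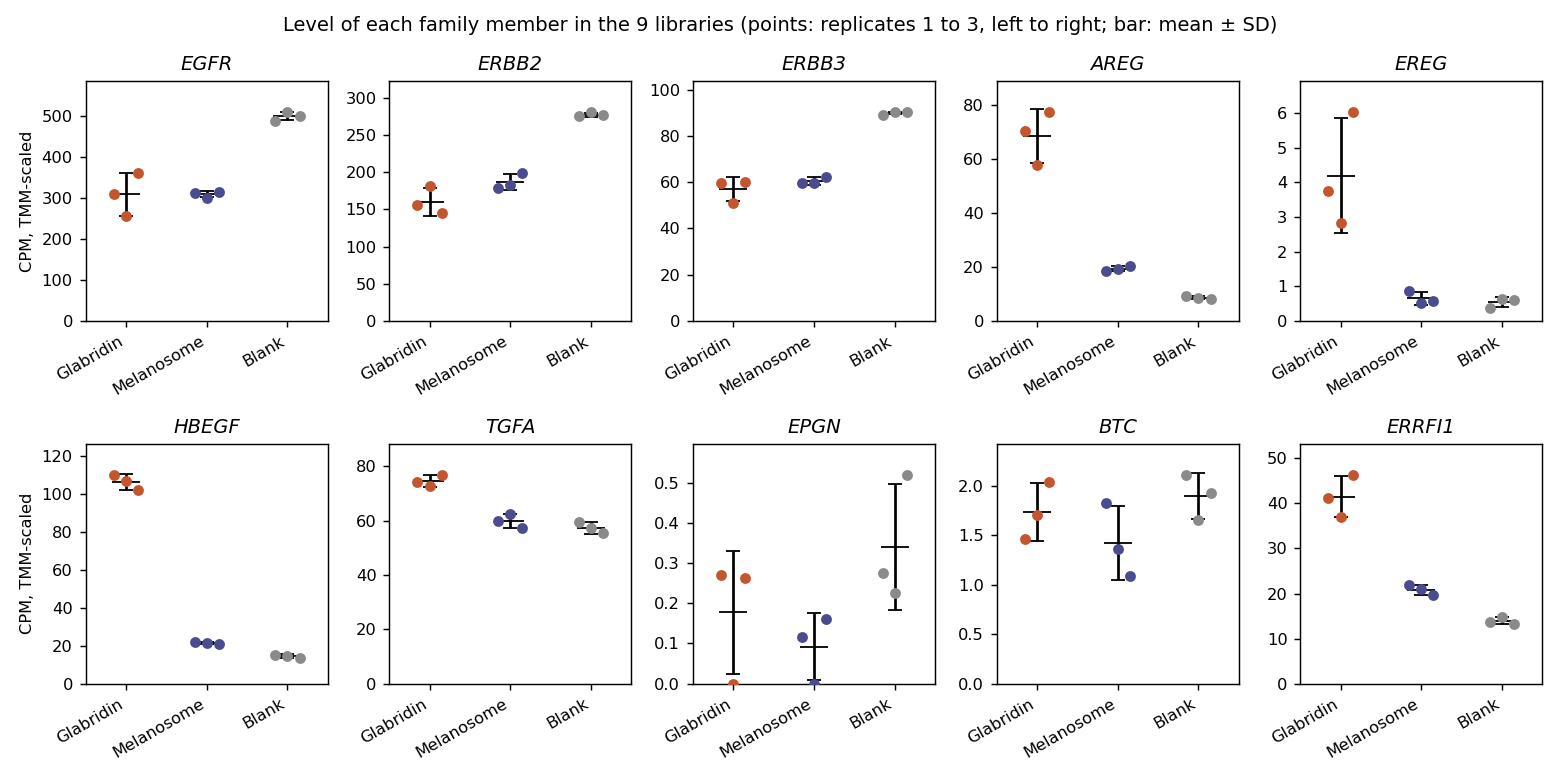
Level of each of the 10 genes in CPM on TMM-scaled library sizes (vertical axis, linear, from 0) in the Glabridin, Melanosome and Blank libraries, with a point per library and a bar for the mean ± SD of 3. The receptor genes are highest in Blank, and AREG, EREG, HBEGF and ERRFI1 are highest in all 3 Glabridin libraries.

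EGFR, the receptor for all 6 ligands described here, had 310, 256 and 360 CPM in Glabridin libraries, 313, 300 and 313 CPM in Melanosome libraries and 488, 509 and 501 CPM in Blank libraries. Every Blank library was above every other library, and the Glabridin libraries lay on both sides of the Melanosome ones. The gene (chr7:55019021-55211628) averaged 309 ± 7.44 CPM in Melanosome and 499 ± 10.3 CPM in Blank (SD, n = 3 each), a log2 fold change of -0.69 ± 0.10 SE (edgeR adjusted p = 0.00017). Against Melanosome, glabridin-treated cells differed by -0.0019 ± 0.10 SE on the log2 scale (edgeR adjusted p = 0.991), with a mean of 309 ± 52.3 CPM in Glabridin. The Glabridin mean thus hides a 1.41-fold spread between its libraries, against 1.04-fold in each of the other groups.

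ERBB2, the receptor without a ligand of its own, had 155, 181 and 145 CPM in Glabridin libraries, 178, 183 and 199 CPM in Melanosome libraries and 275, 281 and 277 CPM in Blank libraries. Blank was again above every other library, and Glabridin replicate 2 alone reached into the Melanosome range. Located at chr17:39687914-39730426, ERBB2 averaged 187 ± 10.9 CPM in Melanosome and 278 ± 2.71 CPM in Blank, and its log2 fold change was -0.57 ± 0.08 SE (edgeR adjusted p = 0.000149). With glabridin the difference from Melanosome was -0.22 ± 0.08 SE (edgeR adjusted p = 0.0502), at the edge of the threshold. Without Glabridin replicate 2 it was -0.31 and passed (edgeR adjusted p = 0.000813), and over 20 alternatives the adjusted p ran from 0.000316 to 0.176. It also passed with RLE and upper-quartile factors, library totals, DESeq2 and limma, and with TMM factors from genes with at least 10 counts in every library. It did not pass without the filter, with a replicate block, with only the 2 groups compared or with any other library left out. PGAP3 and MIEN1 overlap ERBB2 on the opposite strand, and since the strand setting of the counting is not given, reads of these genes cannot be told apart from its own.

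ERBB3, the neuregulin receptor, which is also active in cells of the neural crest lineage such as melanocytes, had 59.6, 51.1 and 60.2 CPM in Glabridin libraries, 59.6, 59.5 and 62.4 CPM in Melanosome libraries and 89.2, 90.2 and 90.2 CPM in Blank libraries. It was lower in every Melanosome and Glabridin library than in any Blank library. The part of melanocyte or neural crest RNA in its level was not tested. The log2 fold change of ERBB3 (chr12:56076799-56103505) was -0.57 ± 0.07 SE in Melanosome against Blank (edgeR adjusted p = 6.15e-05). In Glabridin against Melanosome it was -0.09 ± 0.07 SE (edgeR adjusted p = 0.357), with overlapping libraries. A further annotated gene, AC034102.2, overlaps its end on the same strand.

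Against Blank, glabridin-treated cells had all 3 receptor genes lower. The log2 fold changes were -0.69 ± 0.10 SE for EGFR, -0.79 ± 0.08 SE for ERBB2 and -0.66 ± 0.07 SE for ERBB3 (edgeR adjusted p = 0.000104, 8.48e-06 and 1.29e-05). Length-scaled levels put ERBB2 and EGFR side by side and ERBB3 well below. In Glabridin they stood at 68.3 ± 4.44, 69.7 ± 15.5 and 19.4 ± 2.67 TPM for ERBB2, EGFR and ERBB3, in Melanosome at 90.5 ± 3.85, 78.8 ± 3.55 and 23.4 ± 0.634 TPM, and in Blank at 119 ± 2.05, 112 ± 3.22 and 30.6 ± 0.454 TPM. ERBB2 and EGFR did not separate beyond their spread in Glabridin. The share of ERBB3 in the summed receptor TPM was 12.3% ± 0.816 in Glabridin, 12.1% ± 0.0911 in Melanosome and 11.7% ± 0.0996 in Blank.

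AREG, which encodes amphiregulin, a growth factor that keratinocytes make for themselves, had 70.4, 57.6 and 77.2 CPM in Glabridin libraries, 18.5, 19.1 and 20.2 CPM in Melanosome libraries and 9.26, 8.50 and 8.18 CPM in Blank libraries. The 3 groups did not overlap, with Glabridin highest and Blank lowest. It rose 3.55-fold in Glabridin against Melanosome (log2 fold change 1.83 ± 0.11 SE, edgeR adjusted p = 7.5e-07). In Melanosome against Blank it rose 2.23-fold (1.16 ± 0.11 SE, edgeR adjusted p = 9.07e-06). In Glabridin against Blank the fold was 7.91.

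HBEGF, which encodes heparin-binding EGF, a ligand released early in wound closure (chr5:140332843-140346631), had 110, 107 and 102 CPM in Glabridin libraries, 22.1, 21.4 and 20.9 CPM in Melanosome libraries and 15.2, 14.8 and 13.5 CPM in Blank libraries. Its replicates were close within each group, and the step between Glabridin and Melanosome was the wider. The gene rose 4.95-fold in Glabridin against Melanosome (2.31 ± 0.07 SE, edgeR adjusted p = 1.24e-08). The rise in Melanosome against Blank was 1.48-fold (0.56 ± 0.07 SE, edgeR adjusted p = 6.61e-05), and Glabridin was 7.31-fold above Blank.

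EREG, which encodes epiregulin, a low-affinity ligand of EGFR and ERBB4, was scarce. It had 3.75, 2.81 and 6.02 CPM in Glabridin libraries, 0.872, 0.516 and 0.582 CPM in Melanosome libraries and 0.367, 0.633 and 0.618 CPM in Blank libraries, from 112 to 275, 22 to 45 and 16 to 28 counts. Glabridin libraries were all above the others, while Melanosome and Blank overlapped. The rise in Glabridin against Melanosome was 6.33-fold (2.66 ± 0.32 SE, edgeR adjusted p = 0.0001), and the difference of Melanosome from Blank did not pass (0.30 ± 0.39 SE, edgeR adjusted p = 0.526). On the log2(TPM + 1) scale, which shrinks changes of scarce genes, the EREG change in Glabridin against Melanosome was 1.22.

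TGFA, which encodes TGF-alpha, the ligand with the highest length-scaled level in Blank (chr2:70447280-70554193), had 74.3, 72.7 and 76.7 CPM in Glabridin libraries, 59.8, 62.3 and 57.1 CPM in Melanosome libraries and 59.5, 57.2 and 55.3 CPM in Blank libraries. Glabridin libraries lay above all others, and the other groups overlapped. The change in Glabridin against Melanosome was small, 0.32 ± 0.06 SE (edgeR adjusted p = 0.00191). It depended on the scaling: with library totals alone it was 0.14 (edgeR adjusted p = 0.0957), and over 20 alternatives the adjusted p ran from 0.000111 to 0.172. In Melanosome against Blank the change was 0.06 ± 0.06 SE (edgeR adjusted p = 0.426), but with library totals it was 0.23 and passed (edgeR adjusted p = 0.0122, range over 20 alternatives 0.0122 to 0.76). Glabridin was above Blank by 0.38 ± 0.06 SE (edgeR adjusted p = 0.000264).

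BTC and EPGN, the remaining ligand genes of the chromosome 4 block, were not called in any of the 3 comparisons. BTC, which encodes betacellulin, had 1.46, 1.71 and 2.04 CPM in Glabridin libraries, 1.82, 1.36 and 1.08 CPM in Melanosome libraries and 2.11, 1.65 and 1.93 CPM in Blank libraries, overlapping throughout. EPGN, which encodes epigen, had 12, 0 and 12 counts in Glabridin libraries, 6, 0 and 8 in Melanosome libraries and 12, 10 and 21 in Blank libraries. A count of 0 allows up to 3 counts, 0.0754 CPM in Glabridin replicate 2 and 0.0704 CPM in Melanosome replicate 2, for counting error only. EPGN was lower in every Melanosome library than in any Blank library, a separation shown by 41.1% of all genes in that direction, and the test gave -1.78 ± 0.85 SE (edgeR adjusted p = 0.0914). The call depended on single libraries: without Glabridin replicate 2 the EPGN change was -1.77 and passed (edgeR adjusted p = 0.0273), and without Melanosome replicate 1 the BTC change was -0.64 and passed (edgeR adjusted p = 0.0387), with ranges over the alternatives of 0.0273 to 0.27 and 0.0387 to 0.412. In Glabridin against Melanosome the log2 fold changes were 0.90 ± 0.94 SE for EPGN (edgeR adjusted p = 0.465) and 0.28 ± 0.22 SE for BTC (edgeR adjusted p = 0.331). Whether these differ from the changes of AREG and EREG, the other genes of the block, was not tested, and with at most 12 EPGN counts in a library of either group its test had little to work with.

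**Figure D2:**
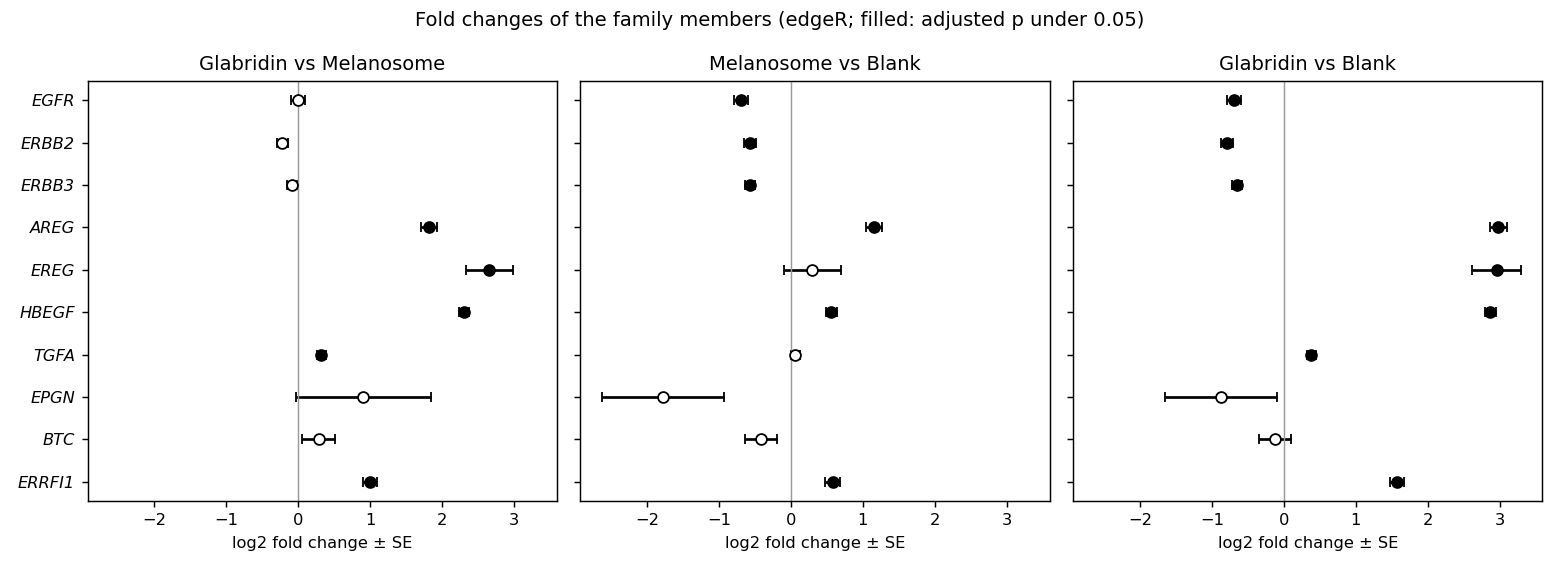
Log2 fold change ± SE (horizontal axis, the same in all panels) of each gene in Glabridin against Melanosome, Melanosome against Blank and Glabridin against Blank, filled where the edgeR adjusted p was under 0.05. The receptor genes sit left of 0 against Blank and near 0 in Glabridin against Melanosome, where AREG, EREG and HBEGF reach 1.83, 2.66 and 2.31.

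ERRFI1, the feedback inhibitor that binds the EGFR kinase domain (chr1:8004404-8026308), had 41.2, 37.0 and 46.3 CPM in Glabridin libraries, 21.8, 21.0 and 19.6 CPM in Melanosome libraries and 13.8, 14.8 and 13.2 CPM in Blank libraries. The groups did not overlap, with Glabridin highest and Blank lowest, the order seen for AREG. Its rise was 1.996-fold in Glabridin against Melanosome (1.00 ± 0.10 SE, edgeR adjusted p = 2.15e-05). In Melanosome against Blank it was 1.49-fold (0.58 ± 0.10 SE, edgeR adjusted p = 0.000549), and against Blank the Glabridin level was 2.98-fold.

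The balance of ligand and receptor transcripts within a library, on the length-scaled TPM, differed between the groups. Summed over 6 ligand genes, the level was 304 ± 36.9 TPM in Glabridin, 111 ± 2.99 TPM in Melanosome and 67.7 ± 2.58 TPM in Blank. Summed over 3 receptor genes, it was 157 ± 14.0 TPM in Glabridin, 193 ± 6.30 TPM in Melanosome and 262 ± 5.69 TPM in Blank. The receptor sums depend on the scale. On TMM-scaled CPM they were 525, 488 and 565 CPM in Glabridin libraries and 551, 542 and 575 CPM in Melanosome libraries. In Blank libraries they were 853, 880 and 868 CPM. Glabridin and Melanosome thus overlapped, and no receptor gene was called lower between them in the main TMM fit. The ligand sums on that scale were 260, 242 and 264 CPM in Glabridin, 103, 105 and 100 CPM in Melanosome and 86.8, 83.0 and 80.1 CPM in Blank. Within each library, on TPM, ligand transcripts came to 193% ± 8.37 of receptor transcripts in Glabridin, 57.8% ± 2.22 in Melanosome and 25.9% ± 1.44 in Blank. The ranges of the 3 groups did not overlap, and no test was made on these sums. This ratio is formed within a library, so scaling between libraries does not enter it.

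The makeup of the ligand pool shifted as well. TGFA held 13.3% ± 0.648 of the summed ligand TPM in Glabridin, 33.0% ± 1.26 in Melanosome and 46.0% ± 0.390 in Blank. AREG held 47.04% ± 3.70 in Glabridin, 41.3% ± 1.93 in Melanosome and 26.8% ± 0.512 in Blank. HBEGF held 38.3% ± 3.46 in Glabridin, 23.9% ± 0.709 in Melanosome and 23.4% ± 0.633 in Blank. In Blank, TGFA (31.1 ± 0.939 TPM) led AREG (18.2 ± 1.01 TPM) and HBEGF (15.9 ± 0.892 TPM), with the last 2 closer together. In Glabridin, AREG (144 ± 28.3 TPM) and HBEGF (116 ± 4.89 TPM) led, and 1 of the AREG libraries lay within the HBEGF range. EREG, BTC and EPGN together were a minor part in every group, at 2.40 ± 1.07, 1.61 ± 0.325 and 0.257 ± 0.222 TPM in Glabridin.

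**Figure D3:**
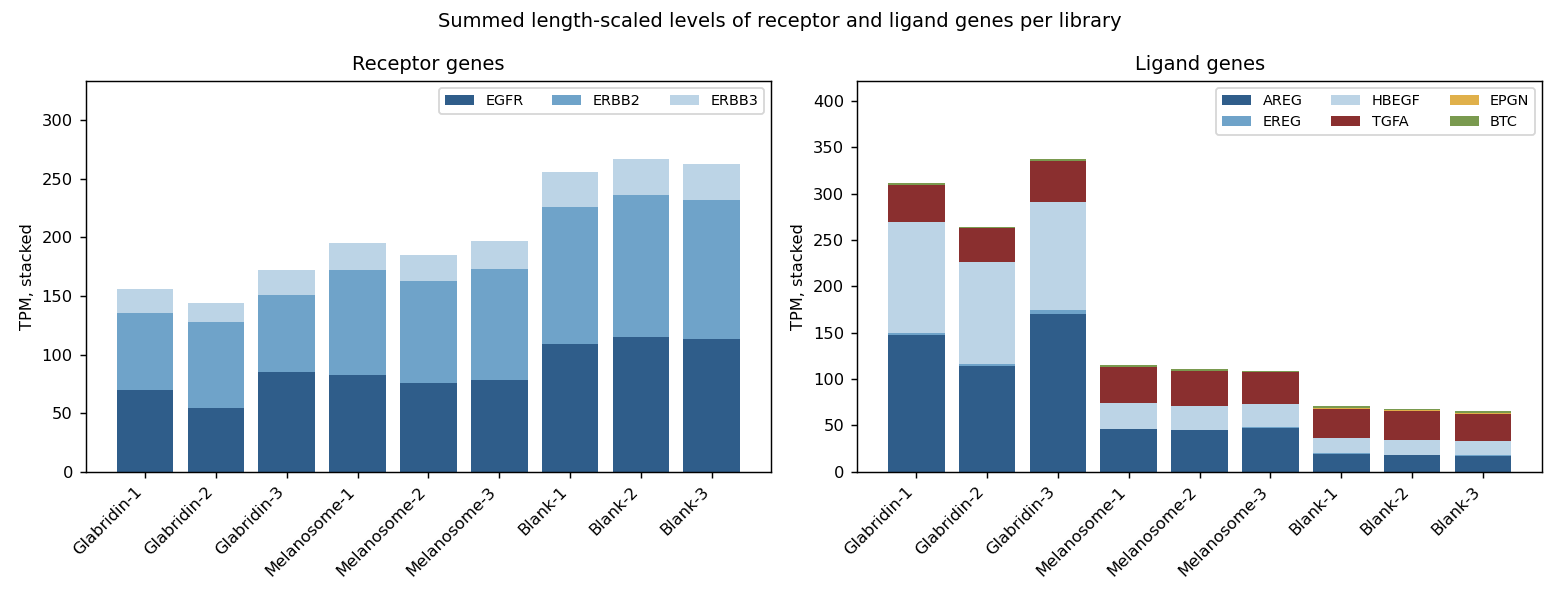
Stacked TPM (vertical axis, from 0) of the receptor genes (left) and ligand genes (right) in each of the 9 libraries. The receptor sum averages 157 TPM in Glabridin, 193 TPM in Melanosome and 262 TPM in Blank, and the ligand sum averages 304, 111 and 67.7 TPM in the same groups.

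The Glabridin libraries differed among themselves. Of the 10 genes, 7 were lowest in replicate 2 and 7 were highest in replicate 3, receptors (EGFR, ERBB3) and ligands (AREG, EREG, TGFA) alike, whereas ERBB2 was highest in replicate 2. The 13 melanocyte markers summed to 2126, 3454 and 1735 CPM in Glabridin replicates 1, 2 and 3, and the keratinocyte markers to 9861, 11750 and 9022 CPM, so replicate 2 was highest in both. The part of these values in the members' spread was not tested. HBEGF, at 102 to 110 CPM, varied the least of the called ligands except TGFA, with a coefficient of variation of 3.75% against 2.76% for TGFA, 14.5% for AREG and 39.3% for EREG.

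Patterns like those of EGFR and AREG were common over 9 libraries in 3 groups. By Pearson correlation of log2 CPM among 11105 genes, the genes most like EGFR were MXD1 (r = 0.999), NCOA2 (0.997) and ARFGEF1 (0.997), and 700 genes had r over 0.95. Those most like AREG were CEBPB (0.996), PLPBP (0.996) and PHGDH (0.996), with 528 genes over 0.95. These values describe shared steps between groups within the same libraries, and no test was attached to them.

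Of 6 other receptors and ligands of the family, EGF itself had 8, 14 and 6 counts in total over the Glabridin, Melanosome and Blank groups and was not tested. ERBB4, the fourth receptor, had 1.29 ± 0.337 CPM in Glabridin, 1.23 ± 0.299 CPM in Melanosome and 2.32 ± 0.181 CPM in Blank, lower in Melanosome against Blank (-0.92 ± 0.23 SE, edgeR adjusted p = 0.0053) and not called in Glabridin against Melanosome (edgeR adjusted p = 0.805). Among the neuregulin genes, which encode ligands of ERBB3 and ERBB4, NRG1 had 31.6 ± 2.19 CPM in Glabridin, 22.7 ± 1.02 CPM in Melanosome and 16.6 ± 1.13 CPM in Blank, and rose in Glabridin against Melanosome (0.48 ± 0.09 SE) and in Melanosome against Blank (0.45 ± 0.09 SE). NRG2 fell to 48.5 ± 1.01 CPM in Melanosome, against 120 ± 7.29 CPM in Blank, and NRG4 also fell there (-0.39 ± 0.09 SE). NRG3 had 70 counts in Glabridin and 77 in Melanosome, against 0 in Blank. It passed the count filter only through those groups, so its rise against Blank, counted below, was set by the filter. In all, 2 of 5 tested rose and 3 fell in Melanosome against Blank (5 of 5, against 62.5% of all genes; median -0.39, all genes -0.06). Only NRG1 rose in Glabridin against Melanosome and none fell with edgeR (1 of 5, against 43.9%; median 0.02, all genes 0.01), with 0 lower at an unadjusted p under 0.05 and 0 lower with DESeq2. In Glabridin against Blank 2 rose and 3 fell (5 of 5, against 70.3%; median -0.54, all genes 0.03), with NRG1 and NRG3 higher and ERBB4, NRG2 and NRG4 lower.

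In this and the following lists, genes said to lead a direction had the smallest p-values in it. Genes that control ligand release were called in both directions. Of 12 sheddase, iRhom and inhibitor genes, 5 rose and 6 fell in Melanosome against Blank (11 of 12, against 62.5% of all genes; median -0.10, all genes -0.06). For Glabridin against Melanosome 2 rose and 2 fell (4 of 12, against 43.9%; median 0.0015, all genes 0.01), and in Glabridin against Blank 5 rose and 5 fell (10 of 12, against 70.3%; median -0.01, all genes 0.03). ADAM17, the main protease for AREG, HBEGF, EREG and TGFA precursors, had 40.1 ± 8.39 CPM in Glabridin, 34.1 ± 1.46 CPM in Melanosome and 44.0 ± 1.37 CPM in Blank. It was lower in Melanosome against Blank (-0.37 ± 0.13 SE, edgeR adjusted p = 0.0283) and not called in Glabridin against Melanosome (0.24 ± 0.13 SE, edgeR adjusted p = 0.163). ADAM10, the main protease for BTC and EGF precursors, changed by -0.43 ± 0.12 SE in Melanosome against Blank and by -0.01 ± 0.12 SE, not called, in Glabridin against Melanosome. TIMP3, a secreted inhibitor of ADAM17, fell at both comparisons, to 161 ± 18.7 CPM in Glabridin, against 323 ± 8.68 CPM in Melanosome and 722 ± 9.50 CPM in Blank. FRMD8, which stabilises the iRhom-ADAM17 complex, fell likewise (-0.87 ± 0.11 SE in Glabridin against Melanosome, -0.88 ± 0.11 SE in Melanosome against Blank). TIMP1, another inhibitor of metalloproteases, rose by 0.53 ± 0.11 SE and 0.57 ± 0.11 SE in these comparisons, and ADAM8 rose under glabridin by 0.38 ± 0.07 SE. ADAM12 had 67 counts in Glabridin and 101 in Melanosome against 1 in Blank. It too passed the count filter only through the groups with melanosomes. Its rise against Blank, counted above, was set by the filter. Against Blank, the Glabridin libraries had TIMP1 and ADAM12 highest ranked among the rises and TIMP3 (-2.16 ± 0.08 SE) and FRMD8 (-1.74 ± 0.11 SE) among the falls.

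A list of 18 genes held regulators of receptor breakdown and dephosphorylation that do not all act one way on the receptors, so its counts give no direction for receptor activity. Of these, 3 rose and 9 fell in Melanosome against Blank (12 of 18, against 62.5% of all genes; median -0.17, all genes -0.06). Under glabridin, against Melanosome, 4 rose and 2 fell (6 of 18, against 43.9% of all genes; median 0.06, all genes 0.01), and in Glabridin against Blank 9 rose and 4 fell (13 of 18, against 70.3% of all genes; median 0.04, all genes 0.03). LRIG1, which promotes receptor breakdown, was low, with 2.86 ± 0.404 CPM in Glabridin, 3.31 ± 0.176 CPM in Melanosome and 0.727 ± 0.235 CPM in Blank. Its log2 fold change was 2.18 ± 0.22 SE in Melanosome against Blank. SH3KBP1, an adaptor of receptor internalisation, rose there by 2.31 ± 0.15 SE, while SOCS4 (-1.25 ± 0.20 SE) and the deubiquitinase gene USP8 (-0.92 ± 0.18 SE) fell. USP8 removes ubiquitin from internalised receptors, which can spare them from breakdown. Under glabridin TRAF4, which has been described as promoting EGFR activation, rose to 463 ± 27.2 CPM in Glabridin, against 208 ± 9.08 CPM in Melanosome, and LRIG2 rose by 1.01 ± 0.09 SE, while SOCS3 (-0.43 ± 0.12 SE) and USP8 (-0.49 ± 0.18 SE) fell. In Glabridin against Blank, TRAF4 and SH3KBP1 led the rises (0.91 ± 0.06 and 2.26 ± 0.15 SE) and USP8 and SOCS4 the falls (-1.41 ± 0.18 and -1.25 ± 0.21 SE).

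Downstream of the receptors, 18 adaptor and kinase genes were tested. In Melanosome against Blank 5 rose and 5 fell (10 of 18, against 62.5% of all genes; median -0.06, all genes -0.06), led by MAP2K1 (0.33 ± 0.06 SE) and SHC1 (0.29 ± 0.06 SE) among rises and by the exchange factor genes SOS1 (-1.26 ± 0.21 SE) and SOS2 (-1.03 ± 0.17 SE) among falls. In Glabridin against Melanosome 7 rose and none fell with edgeR (7 of 18, against 43.9% of all genes; median 0.21, all genes 0.01). At an unadjusted p under 0.05, 0 were lower with edgeR, and DESeq2 called 1 lower. The rises were led by SHC1, the adaptor that docks on active receptors (0.54 ± 0.06 SE), and HRAS (0.50 ± 0.09 SE). In Glabridin against Blank 7 rose and 5 fell (12 of 18, against 70.3% of all genes; median -0.02, all genes 0.03), with SHC1 (0.83 ± 0.06 SE) and HRAS (0.83 ± 0.09 SE) again first among the rises and SOS1 (-1.33 ± 0.21 SE) and SOS2 (-0.71 ± 0.17 SE) among the falls. With library totals alone all genes shifted by a median of -0.18 in Glabridin against Melanosome and by 0.17 in Melanosome against Blank, and changes of this size are relative to the TMM scale.

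Genes that ERK signalling is known to induce moved in both directions. Of 20, 12 rose and 5 fell in Melanosome against Blank (17 of 20, against 62.5% of all genes; median 0.62, all genes -0.06). In Glabridin against Melanosome 9 rose and 3 fell (12 of 20, against 43.9%; median 0.23, all genes 0.01), and in Glabridin against Blank 15 rose and 3 fell (18 of 20, against 70.3%; median 0.63, all genes 0.03). ETV5, an ETS factor gene, had 115 ± 0.608 CPM in Melanosome and 1.34 ± 0.450 CPM in Blank (6.42 ± 0.20 SE). EPHA4 rose by 2.36 ± 0.09 SE, while EPHA2, a receptor gene of keratinocytes, and the phosphatase gene DUSP5 fell by 0.74 and 0.43 on the log2 scale. The part of the melanocyte markers in the rises of ETV5 and EPHA4 was not tested. In Glabridin against Melanosome FOSL1, an AP-1 subunit gene, rose to 32.3 ± 1.42 CPM in Glabridin, against 13.6 ± 0.384 CPM in Melanosome, and EPHA2 rose by 1.34 ± 0.10 SE. CCND1, the gene of cyclin D1, fell to 266 ± 40.6 CPM in Glabridin, against 481 ± 2.23 CPM in Melanosome, and EPHA4 fell by 0.69 on the log2 scale. DUSP6, the phosphatase of ERK itself, had 33.2 ± 2.12 CPM in Glabridin, 46.2 ± 2.92 CPM in Melanosome and 22.3 ± 0.558 CPM in Blank, and fell in Glabridin against Melanosome (-0.48 ± 0.08 SE, edgeR adjusted p = 0.000681). SPRY4 had 4.75 ± 0.424 CPM in Glabridin, 4.66 ± 0.222 CPM in Melanosome and 0.238 ± 0.291 CPM in Blank. With so few Blank reads, SPRY4 passed the count filter only through the groups with melanosomes. Any rise of SPRY4 against Blank in the counts above was therefore set by the filter. EGR1 had 71.7 ± 7.02 CPM in Glabridin, 53.2 ± 0.697 CPM in Melanosome and 62.8 ± 0.729 CPM in Blank, and rose under glabridin (0.43 ± 0.07 SE). In Glabridin against Blank the rises were led by ETV5 (6.37 ± 0.20 SE) and FOSL1 (2.58 ± 0.10 SE), and the falls by SPRY1 (-0.82 ± 0.12 SE) and SPRED3 (-0.74 ± 0.24 SE).

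**Figure D4:**
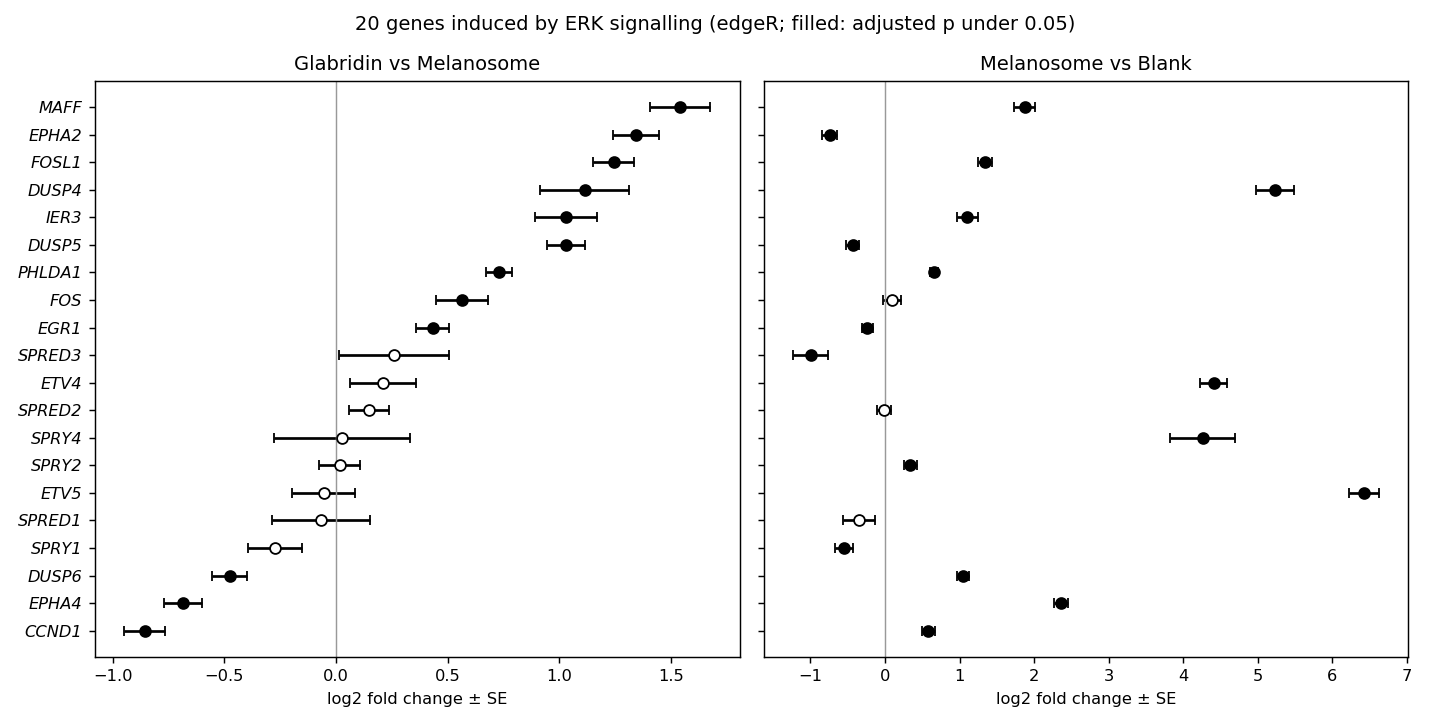
Log2 fold change ± SE of 20 genes induced by ERK signalling in Glabridin against Melanosome (left) and Melanosome against Blank (right, with a wider axis), filled where the edgeR adjusted p was under 0.05. On the left 9 genes rose and 3 fell, with MAFF (1.54) at the top and CCND1 (-0.86) at the bottom.

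**Figure D5:**
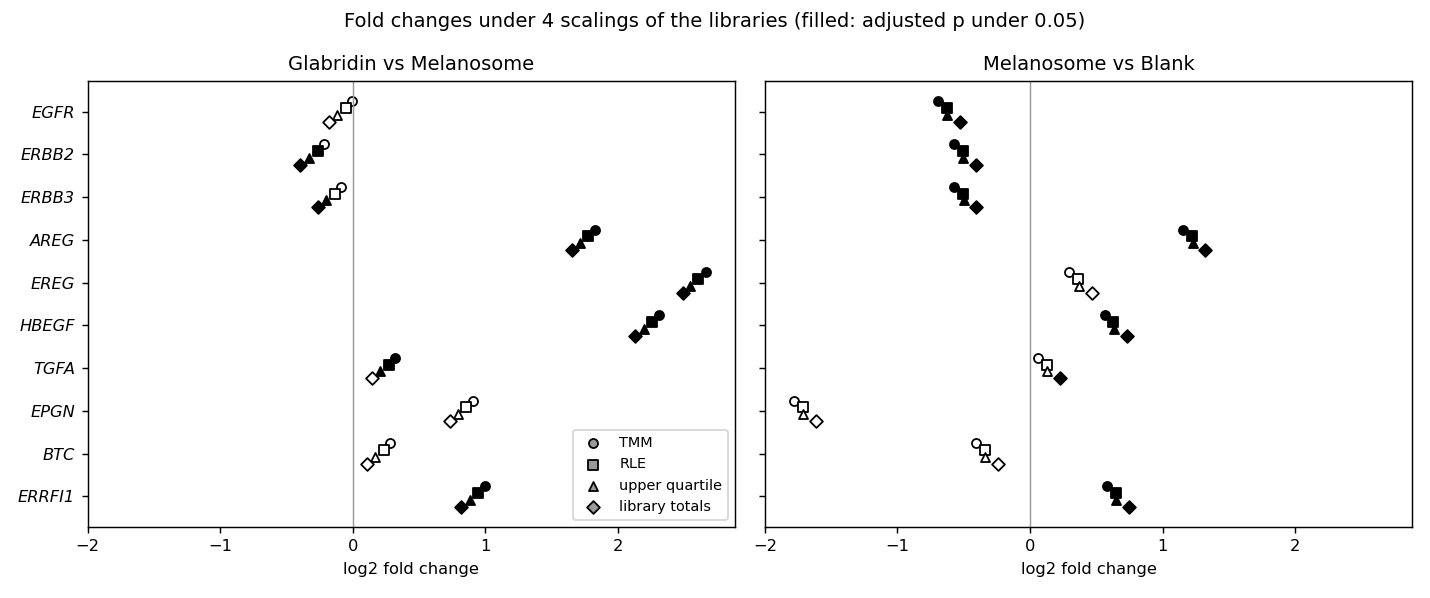
Log2 fold change (horizontal axis) of the 10 genes under TMM, RLE, upper-quartile and library-total scaling, filled where the adjusted p was under 0.05. AREG, EREG, HBEGF and ERRFI1 stay right of 0 and filled in Glabridin against Melanosome under all 4, whereas the calls of ERBB2, ERBB3 and TGFA depend on the scaling.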

How the data were processed

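Paired-end mRNA libraries of HaCaT cells kept strand through dUTP, per the labels' protocols. The deposited expression table gives raw counts, TPM and FPKM per gene, per the file headers, and a second table repeats the TPM (largest difference 0). FPKM were not used. The submitters' processing notes name hg38 as the build. For aligner, counter, strand setting and annotation: not given in the sources used here. Among counts of 1 to 49, 69.9% to 72.2% were even, against 48.7% to 51.1% of counts over 500, as would follow from counting each pair by both its reads, so limits from low counts may be too small.

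Of 20263 identifiers, 20148 matched a symbol. The test was edgeR's quasi-likelihood test (version 4.0.16, R 4.3.3) with TMM factors, a filterByExpr filter by group, all 9 libraries in 1 fit and no replicate block. P-values were adjusted over all 13912 genes tested. All 10 members passed the filter. Alternatives were other scalings, no filter, DESeq2 1.42.0, limma 3.58.1 on log2(TPM + 1) and log2(TPM + 0.1), a replicate block, only the 2 groups compared, and leaving out each library. The edgeR script was tested on simulated data. The members and lists were chosen with earlier results of these data known. Named genes beside the members were, per list and comparison, the 2 called genes with the smallest p in each direction, plus ERBB4, EGF, NRG1, ADAM17, ADAM10, LRIG1, DUSP6, SPRY4 and EGR1. MAFF was named after its value was seen. Motifs were chosen after the values were seen. Some further markers are not reported here.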

Additional observations from a re-analysis of the deposited data

How the results depend on the processing

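The number of members called ranged from 6 to 7 in Melanosome against Blank (6 as reported), from 5 to 7 in Glabridin against Melanosome (5) and was 8 in every alternative in Glabridin against Blank, over 20 alternatives each. Leaving out 1 library at a time gave 6 to 7, 5 to 6 and 8 members. Over all genes, 7181 to 10162, 4838 to 7332 and 8701 to 10511 were called, against 8691, 6111 and 9774 as reported. EGFR in Glabridin against Melanosome changed sign without Melanosome replicate 1 or 3 or Glabridin replicate 2, with values from -0.13 to 0.12 over the libraries left out, and passed the test in none. ERBB3 in Glabridin against Melanosome passed with upper-quartile factors (-0.20), with library totals (-0.26) and with limma on TPM (-0.26 to -0.27, by pseudocount). AREG, HBEGF and ERRFI1 stayed called in both of these comparisons, and EREG in Glabridin against Melanosome, under all 20 alternatives. EPGN had no value under limma with the filter, nor with only the 2 groups compared in Glabridin against Melanosome and Melanosome against Blank. Same-numbered libraries did not deviate together (correlations -0.19 to 0.05 over 9 pairs), so the numbers were not taken as pairs; with a replicate block 8255, 5523 and 9507 genes and 7, 5 and 8 members were called, the added member being EPGN (-1.94). EPGN and EREG rest on few counts, which limits their precision.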
